A study of Homo sapiens with 10 samples.

Results

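The baseline transcriptome of unmodified H441 was described from 3 RNA sequencing libraries of 10 in all. H441 is an established human lung adenocarcinoma line, and the 3 libraries are those whose titles name wild-type H441 (WT 1, WT 2 and WT 3). They were chosen by title alone, with no measured value used. The description covers 592 genes in 29 lists, which ask which lung lineage the line retains, which receptors it carries, what it secretes, which oncogenes it transcribes and which lineages are silent in it.

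The series compares H441 cells with different amounts of TET1, a dioxygenase that starts the removal of methyl groups from cytosines. WT cells were untreated, and the knockout cells (KO, 3 libraries) were made from the WT line by CRISPR-Cas9 directed at TET1. Overexpressing cells (OE, 2 libraries) were transfected with a plasmid for full-length human TET1, and the labels call this transient. A further pair of libraries, titled Lipo, carries the same label as WT, wild type and untreated, and the labels do not explain the title. Cells of each group were kept in RPMI medium with 10% serum and antibiotics. Total RNA was converted with a stranded kit for low input. The labels do not say whether the KO line is 1 clone or whether replicates were separate cultures, so every spread and p-value below speaks only of these libraries.

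The distal lung epithelium is built by NKX2-1, a homeodomain transcription factor that acts with forkhead factors on the genes of surfactant. Surfactant is the film of lipid and protein that keeps the airspaces open. SFTPA1 and SFTPA2 encode its large collectin proteins, SFTPB and SFTPC its small hydrophobic ones, and SFTPD another collectin. H441 has long been used as a model of the secretory epithelium of the small airways, of sodium transport through the epithelial channel ENaC, and of lung adenocarcinoma.

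The promoters of 4 surfactant genes are shown because their products make up surfactant and their levels in WT differ widely, as described below. Each window runs from 250 bases before to 50 bases after a start site in RefSeq (build GRCh38.p14), written 5′ to 3′ on the strand of the gene. Capitals mark 3 motifs searched on both strands: CTCAAG, which holds the CAAG core bound by NKX2-1; TGTTTAC, a forkhead site; and TATAAA, the TATA box. No 2 of the marked matches overlap. The windows are chr10:79610689-79610988 (plus strand) for SFTPA1, chr10:79560358-79560657 (minus strand) for SFTPA2, chr2:85668150-85668449 (minus strand) for SFTPB and chr10:79949056-79949355 (minus strand) for SFTPD. RefSeq lists 2 start sites each for SFTPA2 and SFTPB. The upstream site is shown for SFTPA2 and the downstream site for SFTPB, and the motifs of the other sites are not described. SFTPC is not shown.
SFTPA1: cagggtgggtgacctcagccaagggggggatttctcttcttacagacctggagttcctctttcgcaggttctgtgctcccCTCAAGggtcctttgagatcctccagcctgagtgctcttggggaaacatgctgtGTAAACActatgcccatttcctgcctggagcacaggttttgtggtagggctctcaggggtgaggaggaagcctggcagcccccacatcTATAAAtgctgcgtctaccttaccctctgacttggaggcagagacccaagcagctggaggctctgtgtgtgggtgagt
SFTPA2: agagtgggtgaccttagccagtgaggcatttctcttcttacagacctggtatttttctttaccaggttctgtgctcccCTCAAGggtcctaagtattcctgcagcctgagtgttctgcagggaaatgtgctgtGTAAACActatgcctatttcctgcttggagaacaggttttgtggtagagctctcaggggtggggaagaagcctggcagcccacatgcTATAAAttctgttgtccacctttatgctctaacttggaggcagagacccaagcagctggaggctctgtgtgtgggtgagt
SFTPB: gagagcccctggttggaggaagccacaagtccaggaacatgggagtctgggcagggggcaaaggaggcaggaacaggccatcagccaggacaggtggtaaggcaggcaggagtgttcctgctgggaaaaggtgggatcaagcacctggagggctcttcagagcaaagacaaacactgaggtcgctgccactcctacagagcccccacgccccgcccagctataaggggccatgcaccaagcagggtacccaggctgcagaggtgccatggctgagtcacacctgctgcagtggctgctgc
SFTPD: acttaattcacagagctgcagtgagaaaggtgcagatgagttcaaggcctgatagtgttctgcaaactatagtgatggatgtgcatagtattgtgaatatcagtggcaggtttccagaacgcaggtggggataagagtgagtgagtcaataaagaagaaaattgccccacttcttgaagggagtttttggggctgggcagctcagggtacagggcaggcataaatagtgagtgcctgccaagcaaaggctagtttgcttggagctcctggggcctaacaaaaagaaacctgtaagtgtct

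The SFTPA1 and SFTPA2 windows were identical at 260 of 303 aligned positions (85.8%) and held all 3 motifs in the same order. In SFTPA1 the matches began at positions -170 (CTCAAG), -116 (the forkhead site, on the opposite strand) and -28 (TATAAA), counted from the start site. In SFTPA2 they began at -172, -117 and -30. Of the 35116 promoter windows in the RefSeq table, 12.4% held CTCAAG, 3.42% the forkhead site, 11.5% TATAAA, and 35 windows (0.0997%) held all 3. The SFTPB and SFTPD windows held none of the 3 in these letters, which says only that these letters are not in these windows. The shorter core CAAG occurred 3 times in SFTPB and 4 times in SFTPD, and 86.0% of all windows hold it. A match describes the sequence and was not tested for binding.

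WT 1, WT 2 and WT 3 held 22563999, 25981097 and 22571663 counted reads. Levels are given below as CPM, the usual read share of a library on its TMM-scaled size, or as TPM, counts per kilobase of merged exon length scaled to the same total in each library, which alone allows genes to be compared with one another. Where 2 genes are said not to differ beyond their spread, their means and SDs were set side by side. Both come from the same libraries, and differences within a library were not tested. In all, 12292 genes reached 1 CPM in each WT library, of which 10823 were protein coding and 722 were long noncoding. Of 19841 nuclear protein-coding genes, 5345 had no read in any WT library. A mean of 1 CPM was reached by 55.9% of them. These shares stand beside the list counts below, and a count near them says nothing particular about a list. The lists were chosen with earlier results of these data known, so a count far from these shares is not read as a result either. Protein-coding genes took 91.9% ± 0.380 of counts (SD, n = 3) and the mitochondrial genome 5.71% ± 0.387. The 10 genes with most counts held 5.75% of them, the 100 with most held 22.6%, and 766 genes held 50%.

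A count near 0 in this table cannot always be read as a silent gene. Of 73 subunits of 5 complexes that every cell uses (the proteasome, the chaperonin, RNA polymerase II, initiation factor 3 and splicing factor 3), 5 stood under 1 CPM (6.85%). They were PSMB3 and EIF3K with no read, PSMC4 with 3 reads, PSMA2 at 0.827 CPM and POLR2A at 0.981 CPM. None of the 73 lay between 1 and 10 CPM, so these 5 stood apart from the rest. In the HLA region of chromosome 6 (29722775 to 33087201, GRCh38), 96 of 137 protein-coding genes had no read (70.1%), against 26.6% of those elsewhere. That region holds 7 of the listed genes, AGER, C4A, C4B, CFB, DDR1, POU5F1 and TNF, and their values near 0 are given without being read as absence. Sequence shared with other genes moved with missing counts as well. Where at least 90% of the 50-base stretches of a gene's main transcript also occurred in another gene, 67.8% of 853 genes had no read, against 23.6% of 15712 genes with under 5% shared. Their part in any single value was not tested, and "no read" below means that none was counted.

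The 4 genes that mark the line were all present. In GENCODE 29 (GRCh38), NKX2-1 (ENSG00000136352) lies at chr14:36516392-36521149, SFTPB (ENSG00000168878) at chr2:85657314-85668741, SFTPA2 (ENSG00000185303) at chr10:79555852-79560402 and CDH1 (ENSG00000039068) at chr16:68737225-68835548. NKX2-1 stood at 286, 245 and 245 CPM in WT 1, 2 and 3, and at 279 ± 27.9 TPM (SD, n = 3) it ranked 387th of the protein-coding genes. SFTPB stood at 180.1, 186 and 218 CPM and ranked 770th by TPM. SFTPA2 stood at 3686, 4271 and 4670 CPM and ranked 7th. CDH1, the adhesion protein of epithelial junctions, stood at 1120, 1195 and 1137 CPM and ranked 128th. No library was missing any of the 4, and the highest library exceeded the lowest by less than 1.5-fold for each. TET1 itself was close to silent in WT, with 2, 7 and 0 reads.

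Of 25 listed lung lineage transcription factors, 21 reached a mean of 1 CPM, against 55.9% of all protein-coding genes, and 16 reached 10 CPM. FOXA1, a forkhead factor that opens chromatin for NKX2-1 and for hormone receptors, stood at 276.5, 277.0 and 278.2 CPM (237 ± 1.44 TPM). ELF3, an ETS factor of differentiated epithelia, stood at 402, 447 and 455 CPM, and KLF5, a factor of proliferating epithelial progenitors, at 263, 205 and 224 CPM. By TPM the order was NKX2-1, FOXA1, ELF3 (206 ± 11.8 TPM) and KLF5 (202 ± 27.5 TPM), then FOXP4 at 77.0 ± 6.86 TPM. ELF3 and KLF5 did not differ beyond their spread. Grainyhead-like GRHL2, which maintains epithelial junction genes, stood at 87.9 ± 2.22 CPM. FOXA2, the other forkhead factor of the distal lung, was far lower, with 1.34, 1.64 and 1.53 CPM. GATA6, which drives early lung endoderm, stood at 4.61 CPM on average. SOX2, a factor of the proximal airway, stood at 23.3, 30.9 and 31.3 CPM, and SOX9, which marks the distal bud tip, at 11.1 CPM. HNF4A and SOX17, factors of gut endoderm and of early endoderm, had no read, and FOXA3 had 2 reads.

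Of 18 alveolar type 2 genes, 6 reached 100 CPM, 10 reached 1 CPM and 5 had no read. The counts at 1 CPM and without a read were near the shares of all protein-coding genes (55.9%, and 5345 of 19841). SFTPA1 stood at 3847, 3984 and 4310 CPM (5629 ± 280 TPM) and SFTPA2 at 5332 ± 580 TPM, so that both were among the 10 highest protein-coding genes of the line and did not differ beyond their spread. The 2 genes are close copies: 18.2% of the 50-base stretches of the main SFTPA1 transcript occur in that of SFTPA2. For 100-base stretches the share was 9.14%. How reads from such stretches were counted is not given, and their part in the 2 levels was not tested. MUC1, a transmembrane mucin, stood at 1796, 1530 and 1680 CPM, and SLC34A2, the phosphate transporter of type 2 cells, at 1024, 1419 and 1566 CPM. NAPSA, the aspartic protease that processes pro-surfactant protein B, stood at 343, 430 and 433 CPM. Lower down were the lipid transporter ABCA3 at 38.1 CPM, the protease CTSH at 43.4 CPM and the lamellar body protein LAMP3 at 5.88 CPM.

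SFTPC, the most specific type 2 product, had 2, 0 and 0 reads. SFTPD had 11, 15 and 8 reads, a pooled level of 0.472 CPM (95% exact Poisson interval 0.327 to 0.659, counting error only). PGC, LRRK2, HHIP, CD36 and PLA2G1B had no read, and DMBT1 had 2. A count of 0 over the 3 libraries allows up to 0.0416 CPM, taken as 3 reads. The surfactant messages of WT were thus those of protein A and, at a lower level, protein B. In bulk RNA, fewer cells of a type and less RNA per cell cannot be told apart, here and for every low value below.

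Secretory airway genes were present without the defining club cell products. CXCL17, a mucosal chemokine, stood at 167, 178 and 193 CPM (514 ± 33.3 TPM). AGR2, a protein disulphide isomerase needed for mucin, stood at 112, 171 and 165 CPM, lowest in WT 1. The antiprotease SLPI reached 151 ± 15.03 TPM, the antibacterial lipocalin LCN2 120 ± 6.63 TPM, WFDC2 121 ± 25.98 TPM and the folate receptor FOLR1 87.7 ± 12.1 TPM. Against these, SCGB1A1, SCGB3A1, BPIFA1, TFF3, MUC5AC, CYP2F1 and LTF had no read, and SCGB3A2 had 5, 1 and 1 reads. Of the 18 members of the list, 7 reached a mean of 1 CPM and 7 had no read.

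Among alveolar type 1 genes the caveolae were well represented. CAV1, the caveolin of flat alveolar cells, stood at 546, 436 and 397 CPM, its partner CAV2 at 180.1, 143 and 148 CPM, and the caveolar coat protein CAVIN1 at 151, 156 and 148 CPM. GPRC5A, a retinoic acid inducible receptor, stood at 754, 710 and 758 CPM. The more restricted type 1 markers PDPN (3, 2 and 1 reads) and AQP5 (11, 4 and 10 reads) were close to silent, CLDN18 had no read, and AGER, which lies in the HLA region, had none counted either.

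Other airway lineages were thinly represented. In the ciliated list, DNAH5, a dynein heavy chain, stood at 39.9, 41.4 and 44.5 CPM, while FOXJ1, the master regulator of motile cilia, had 0, 5 and 1 reads. The basal list held TP63, the basal cell factor, at 24.6, 23.5 and 19.2 CPM, yet KRT5 had 2 reads and KRT14 had 2. S100A2, KRT15 and SPRR1B, genes of stratified epithelium, stood at 117 ± 42.3, 81.5 ± 32.0 and 44.9 ± 15.97 CPM, and each was lowest in WT 1 (69.6, 44.6 and 26.8 CPM). DSC3, DSG3, NGFR and DAPL1 had no read. In the neuroendocrine list, 8 of 11 members had no read, among them NEUROD1, INSM1, CHGA, CHGB, CALCA and GRP, and POU2F3, the tuft cell factor, was alone above 1 CPM at 1.78 ± 0.453.

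**Figure D1:**
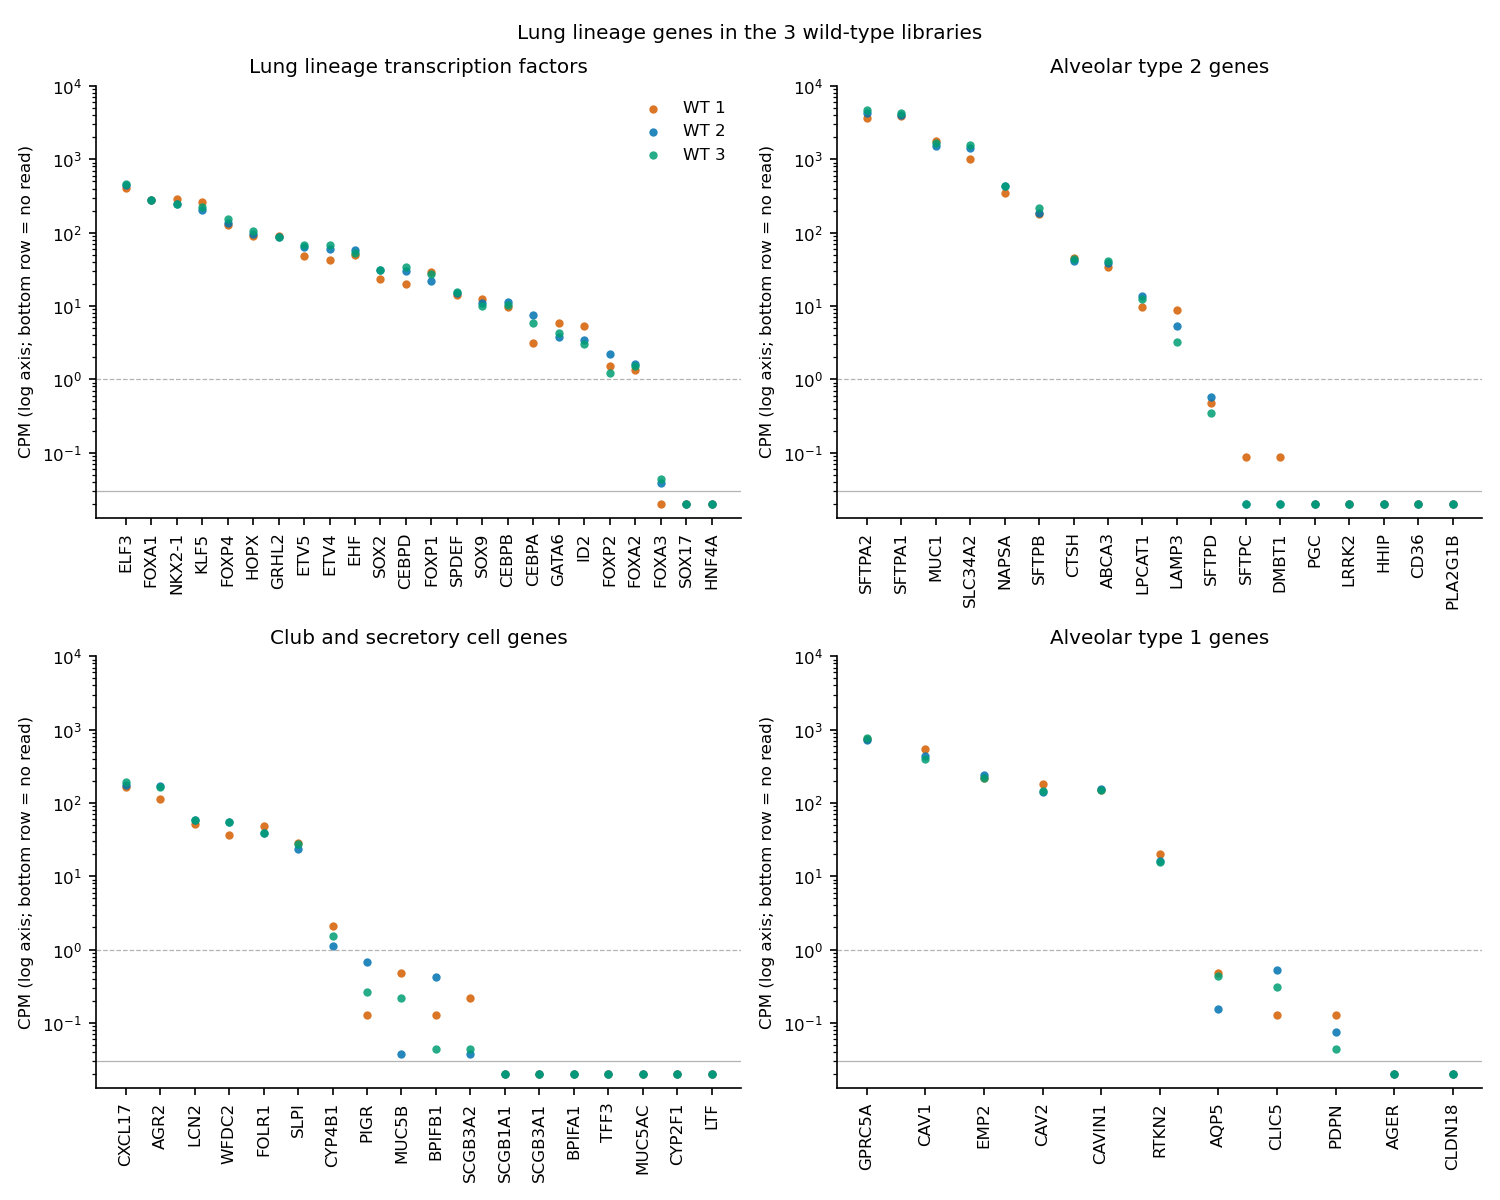
Each point is 1 wild-type library, with CPM on a log axis, for members of 4 lung lists ordered by mean CPM; the dashed line marks 1 CPM, and points under the solid line had no read. SFTPA2 and SFTPA1 sit at 3686 to 4670 CPM in the 3 libraries while SFTPC, SFTPD and the secretoglobins lie under 1 CPM.

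Epithelial genes were high, with a few exceptions. Simple-epithelial keratins were among the highest genes of the line: KRT19 at 3138 ± 323 TPM, KRT18 at 2388 ± 25.3 TPM, KRT7 at 2172 ± 23.5 TPM and KRT8 at 1471 ± 112 TPM. KRT18 varied little, at 2250, 2263 and 2247 CPM. EPCAM, the adhesion molecule used to sort epithelial cells, stood at 655, 710 and 633 CPM, and the splicing regulators of epithelia ESRP1 and ESRP2 at 266 and 192 CPM on average. Of 26 members, 23 reached 1 CPM and 16 reached 100 CPM. Those below were KRT20, an intestinal keratin with no read, CLDN7 with 2, 14 and 2 reads, and OCLN with 5, 9 and 5 reads, and the tight junction scaffold TJP1 stood at 3.51, 1.83 and 1.88 CPM. Counts of CLDN7 and OCLN stayed as low in all 10 libraries together, at 52 and 108 reads. Whether these junction genes were silent or not countable was not tested.

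Mesenchymal genes were uneven. FN1, the matrix protein fibronectin, stood at 1551, 2562 and 2425 CPM, and CDH11, a mesenchymal cadherin, at 171, 159 and 164 CPM. Tenascin TNC stood at 148, 283 and 233 CPM. Vimentin (VIM), the intermediate filament of mesenchymal cells, stood at only 5.15, 3.36 and 3.46 CPM. Among the factors that repress CDH1, SNAI1 averaged 11.4 CPM, SNAI2 12.9 CPM and ZEB1 6.93 CPM, ZEB2 had 1 read, and TWIST1, TWIST2 and CDH2 had no read. FN1, TNC and SNAI1 were lowest in WT 1, and SNAI2 and VIM were highest there.

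ENaC, for which the line is used, was unequal in its subunits. SCNN1A, the pore subunit alpha, stood at 683, 837 and 893 CPM (466 ± 59.2 TPM), SCNN1B at 18.9, 20.8 and 21.03 CPM (17.6 ± 0.898 TPM), and SCNN1G had 25, 12 and 24 reads. The sodium pump subunit ATP1B1 stood at 282, 212 and 198.5 CPM, highest in WT 1. NR3C1, the glucocorticoid receptor through which the channel is induced, averaged 152 CPM, while NR3C2, the mineralocorticoid receptor, averaged 3.69 CPM. The chloride channel CFTR had 13, 14 and 13 reads. AQP4, a water channel, stood at 92.9 CPM in WT 1 and at 32.6 and 33.7 CPM in the others.

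Receptor tyrosine kinases were led by MET, the receptor for hepatocyte growth factor, at 1669, 2003 and 1990 CPM (914 ± 85.3 TPM). EPHA2, an ephrin receptor, followed at 181 ± 23.5 TPM. Next came the EGF family receptors ERBB3 at 115 ± 15.9 TPM and ERBB2 at 103 ± 16.2 TPM. Both were lowest in WT 1, and their difference within libraries was not tested. EGFR itself stood at 178.7, 225.6 and 225.7 CPM and KDR, the main VEGF receptor of endothelium, at 112, 115 and 115 CPM. In all, 31 of 58 receptors reached a mean of 1 CPM and 9 reached 100 CPM. The first count was near the share of all protein-coding genes (55.9%). No read was counted for 16, also near the share of all protein-coding genes (5345 of 19841). Among them were RET, ALK, NTRK3, ROR2, FLT1, FLT3, FLT4, FGFR2, FGFR3, PDGFRA, PDGFRB, INSRR, EPHA7, EPHB6 and AATK. ROS1, a receptor kinase, stood at 9.96, 15.2 and 17.5 CPM. FGFR1 had 3 reads in all, so that of FGFR1 to FGFR4 only FGFR4, at 12.6 CPM, was above 1 CPM. DDR1, in the HLA region, had 1 read.

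Growth factor ligands were led by a member of the EGF family. AREG, amphiregulin, stood at 284, 378 and 369 CPM (711 ± 103 TPM) and EREG, epiregulin, at 407, 393 and 399 CPM (239 ± 5.83 TPM). TGFA averaged 106 CPM, HBEGF 30.3 CPM and BTC 26.6 CPM, while EGF averaged 3.68 CPM and the ERBB3 ligand NRG1 had 1 read. MDK, the heparin-binding cytokine midkine, stood at 340, 376 and 396 CPM, and VEGFA at 570, 700 and 765 CPM. HGF, the ligand of MET, had no read, nor had FGF2, FGF19 and NRG4. Of 34 ligands, 21 reached a mean of 1 CPM, against 55.9% of all protein-coding genes. WT 1 was the lowest library for AREG, MDK, VEGFA and VEGFB and the highest for TGFA, FGFBP1, HBEGF and BTC.

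**Figure D2:**
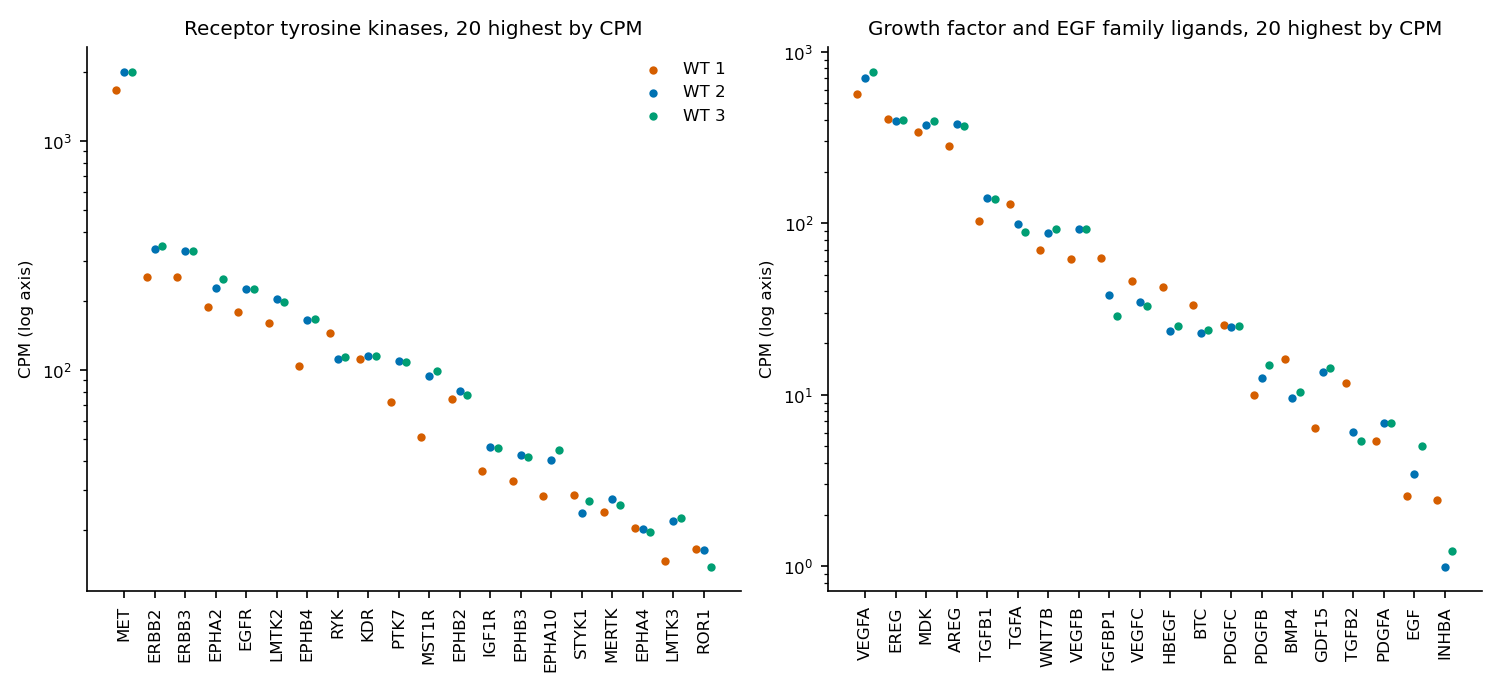
CPM (log axis) of the 20 highest receptor tyrosine kinases and the 20 highest growth factor ligands, with 1 point for each wild-type library. MET lies above every other receptor in all 3 libraries, and WT 1 is the lowest of the 3 for MET, ERBB2, ERBB3, EPHA2 and EGFR.

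Of 30 listed receptors for cytokines, 29 reached a mean of 1 CPM, against 55.9% of all protein-coding genes. TGFBR3 was the member with no read. The death-domain receptor TNFRSF1A stood at 344, 373 and 395 CPM, OSMR, which binds oncostatin M, at 519, 534 and 544 CPM, and IL13RA1 at 339, 390 and 388 CPM. By TPM these 3 lay between 253 and 316, close to TNFRSF12A at 310 ± 29.2. Among tumour surface antigens, 25 of 29 reached 1 CPM and 18 reached 100 CPM. MUC1 stood at 1207 ± 102 TPM and the tetraspanin CD63 at 700 ± 144 TPM. The cell adhesion carcinoembryonic antigens differed in steadiness: CEACAM6 stood at 454, 501 and 532 CPM and CEACAM5 at 201, 433 and 484 CPM. CD55, which protects cells from complement, averaged 1106 CPM. CD274, the ligand of PD-1, stood at 63.2, 83.4 and 71.3 CPM. Mesothelin (MSLN) averaged 1.74 CPM and L1CAM had 4 reads.

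Several secreted or membrane-bound proteases were high. PLAU, the urokinase, stood at 529, 697 and 691 CPM (738 ± 105 TPM), and the membrane protease MMP14 at 575, 730 and 718 CPM. PLAT, tissue plasminogen activator, stood at 578, 1097 and 1127 CPM, lowest in WT 1. TIMP1, an inhibitor of metalloproteases, reached 211 ± 22.1 TPM. MMP2 and TIMP3 had no read. Of 35 members, 28 reached 1 CPM.

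Cytokine genes were lower. CXCL2 and CXCL8, which attract neutrophils, stood at 92.1, 32.0 and 38.1 CPM and at 81.4, 42.7 and 40.4 CPM. LIF, a cytokine of the IL-6 family, stood at 59.7, 83.2 and 91.0 CPM, and the membrane chemokine CX3CL1 at 108, 128 and 133 CPM. IL1B, IL33, TSLP, CSF3, CXCL5, CXCL6, CXCL14, CCL5 and SPP1 had no read. Neither had TNF, in the HLA region, nor MIF, whose exons overlap another gene over 61.95% of their bases. In the complement list LCN2 was alone above 10 CPM, and C1R, HP, A2M, C4A, C4B, CFB and SAA1 had no read.

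Against 55.9% of all protein-coding genes, 28 of 29 listed genes of the RAS to ERK route reached a mean of 1 CPM. Its immediate targets were the highest: EGR1 at 1912, 1486 and 1568 CPM (1800 ± 259 TPM) and FOSL1, an AP-1 subunit, at 944, 900.1 and 951 CPM (1684 ± 49.9 TPM). These did not differ beyond their spread. DUSP6, the phosphatase that limits ERK, stood at 705, 611 and 633 CPM. Of the RAS genes, NRAS averaged 66.8 CPM, and HRAS had 28, 0 and 0 reads, so that all its WT reads came from WT 1. HRAS held 34 reads in all 10 libraries together, and whether it was silent or not countable was not tested.

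Among oncogenes, MCL1, a survival protein, stood at 536, 461 and 471 CPM, cyclin D1 (CCND1) at 449, 418 and 430 CPM, and MYC at 198, 245 and 267 CPM. TOP2A, a topoisomerase of dividing cells, stood at 338 ± 16.7 TPM and the proliferation antigen MKI67 at 152 ± 5.22 TPM, against a list median of 39.4 TPM. MYCN and CCND2 had no read, and TERT, the telomerase subunit, had 25, 20 and 20 reads. Of 30 members, 25 reached 1 CPM. Tumour suppressors were transcribed in 24 of 26 cases. CDKN2A averaged 48.0 CPM, RB1 43.9 CPM, STK11 44.7 CPM and KEAP1 55.9 CPM. DLC1 had 12, 18 and 14 reads.

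The listed genes of lineages foreign to lung epithelium had few reads. Of 121 genes in 9 lists, 67 had no read, and all 121 together took 0.0467% of counts. A mean of 1 CPM was reached by 14 (11.6%, against 55.9% of all protein-coding genes). The lists were chosen with earlier results of these data known, so this low share is not read as a result. CLDN18, in the intestinal and gastric list, is also in the alveolar type 1 list. Haematopoietic genes such as HBB, GATA1 and MS4A1 had no read, PTPRC (CD45) had 0, 3 and 2 reads, and CD79A alone reached 1 CPM, at 1.09 ± 0.226. No gene of the liver and pancreas, intestinal and gastric, or cardiac and skeletal muscle lists reached 1 CPM. INS, PDX1, CDX2, MUC2, MYOD1 and MYH7 were among those with no read, and ALB had 2 reads.

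In these lists 5 genes reached 10 CPM. COL1A1, a chain of type I collagen, stood at 156, 266 and 272 CPM, while COL1A2, the chain it pairs with, had no read. KDR averaged 114 CPM, whereas CLDN5, ERG and EMCN had no read and CDH5 had 29, 16 and 15. TDRD1, a Tudor protein of the male germ line, stood at 45.7, 47.7 and 43.4 CPM (29.6 ± 1.55 TPM), steady across the libraries, while DAZL, DPPA3, PRM1, NANOG and LIN28A had no read. LUM, a proteoglycan of connective tissue, stood at 20.8, 15.4 and 16.3 CPM with DCN at no read. TUBB3 averaged 12.7 CPM, and 89.4% of the 50-base stretches of its main transcript also occur in other genes. Below 10 CPM, the neural enzyme GAD1 averaged 8.46 CPM, the egg coat gene ZP3 5.82 CPM, the oestrogen receptor ESR1 5.04 CPM, smooth muscle actin ACTA2 2.83 CPM, the synaptic gene SYT1 2.06 CPM, GATA3 1.82 CPM, TEK 1.76 CPM and ESAM 1.41 CPM.

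**Figure D3:**
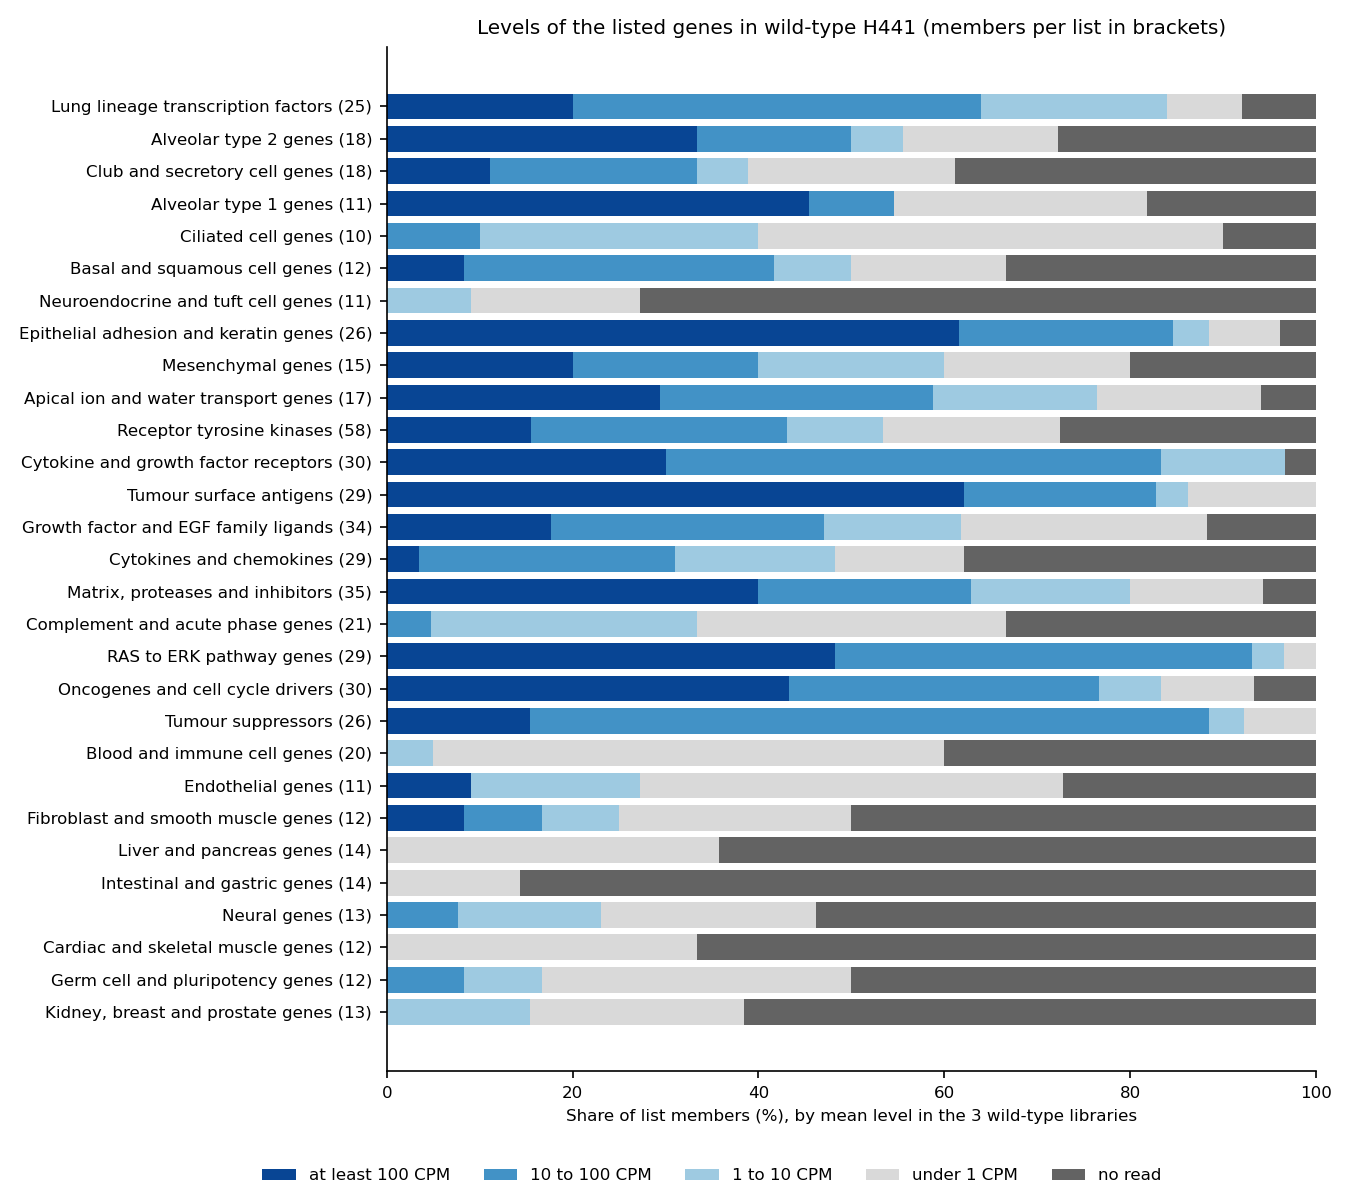
For each of the 29 gene lists, the bar gives the share of members (%) by mean CPM over the 3 wild-type libraries, with the number of members in brackets. Epithelial adhesion, tumour antigen and RAS to ERK lists are mostly above 10 CPM, while the 9 lists of foreign lineages at the bottom are mostly under 1 CPM or without a read.

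The 15 most abundant messages per length were taken with mitochondrial, ribosomal protein and structural RNA genes and pseudogenes left out. TMSB10, thymosin beta-10, stood first at 1705, 2616 and 2327 CPM, followed by the calcium-binding S100A6 (1480, 2134 and 1887 CPM), the actin ACTG1 (5081, 5021 and 5256 CPM) and GAPDH (4565, 5521 and 5164 CPM). HMGA1, a chromatin architectural protein of embryonic and tumour cells, was next at 2417, 4496 and 4866 CPM. After the surfactant A genes came, with the same genes left out, S100A11, the retinoic acid binding protein CRABP2 (954, 1347 and 1339 CPM), the ferritins FTH1 and FTL, ACTB, KRT19, PABPC1 and PFN1. The most abundant long noncoding RNAs per length were UCA1, at 1121, 929.6 and 945 CPM, and MALAT1, at 1848, 737 and 983 CPM.

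The 3 libraries differed from one another by more than counting error. Over the 9034 genes with a mean of 10 CPM or more, the median SD of log2 CPM was 0.153, against 0.0442 from counting alone. Of these genes 92.2% exceeded their counting value. Counting error alone would also put a part of the genes above that value, and this part was not computed. The highest library was within 1.5-fold of the lowest for 85.5% of genes, over 2-fold for 164 (1.82%), and over 4-fold for 2. WT 1 stood apart. It lay over 2-fold above both others for 19 genes and over 2-fold below both for 52, against 2 and 0 for WT 2 and 0 and 0 for WT 3. The SD of the log2 difference was 0.355 between WT 1 and WT 2, 0.386 between WT 1 and WT 3, and 0.152 between WT 2 and WT 3. Without WT 1 the median SD was 0.0625. The biological coefficient of variation was 0.165 in WT, against 0.0764 in Lipo, 0.207 in KO and 0.0824 in OE.

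GC content moved with that difference. Across 8678 protein-coding genes, the median of WT 1 minus the mean of WT 2 and WT 3, as log2 CPM, was 0.21 in the fifth of genes with the lowest GC content (31.8% to 41.0%) and -0.36 in the fifth with the highest (58.2% to 74.0%). The 3 groups between gave 0.14, 0.05 and -0.14. The same comparison of WT 2 with WT 3 ran from 0.04 to -0.05. By length of the main transcript the medians lay between -0.02 and 0.02. Deviations of WT 1 from its group mean went with those of KO 1 (Pearson r = 0.671 over 9026 genes), against 0.201 for WT 2 with KO 2 and 0.493 for WT 3 with KO 3. The matching by number did not hold for WT 2, whose correlation with KO 3 was 0.357. The deviations within a group sum to 0 and are therefore linked, and the correlations are across genes, which are not replicates. The part of GC content in single genes was not tested.

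**Figure D4:**
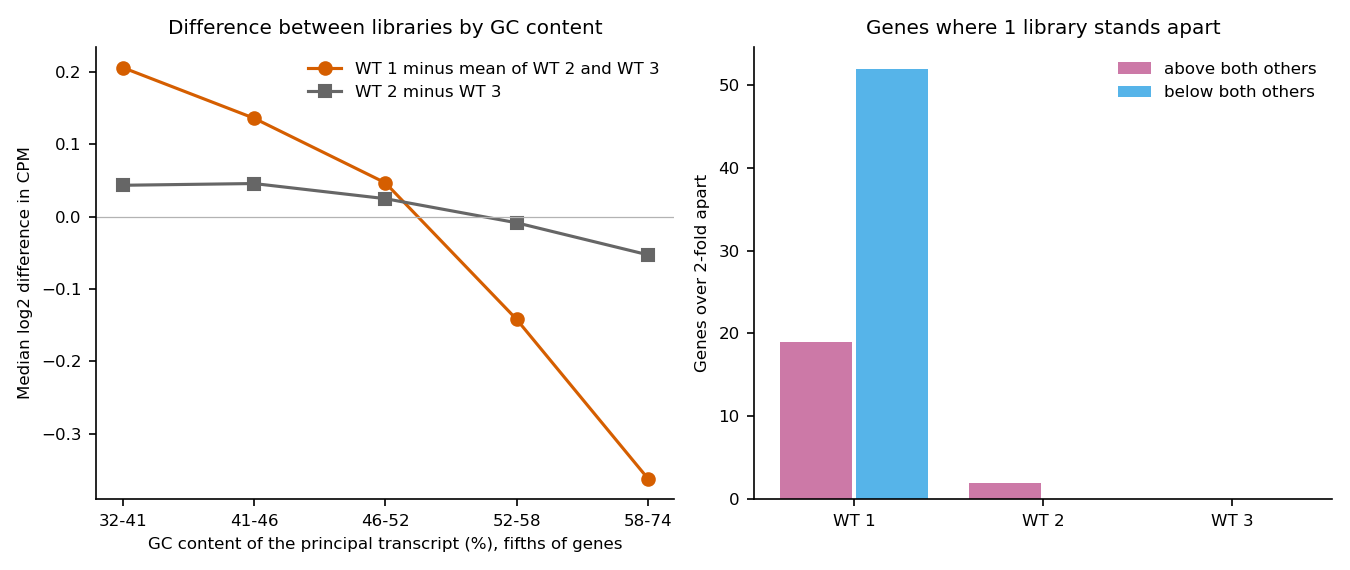
Left, the median log2 difference in CPM between libraries in 5 equal groups of genes by GC content (%); right, the number of genes with a mean of 10 CPM or more for which 1 library lay over 2-fold above or below both others. The WT 1 line runs from 0.21 to -0.36 with GC content, and it accounts for 71 of the 73 genes on the right.

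The most variable genes included several secreted products. IL6, an inflammatory cytokine, stood at 37.8, 5.42 and 6.35 CPM and CNOT3, a subunit of the deadenylase complex, at 31.1, 7.29 and 8.37 CPM. CCN2, a matricellular target of YAP, stood at 31.6, 9.01 and 12.8 CPM, and MMP9, a gelatinase, at 57.5, 20.2 and 20.2 CPM. With AQP4 and CXCL2 these were highest in WT 1. KIF21B (5.28, 13.6 and 18.5 CPM), the IL-33 receptor IL1RL1 (9.70, 29.1 and 25.1 CPM), RAB3B, PLXNB3 and MFSD2B were lowest in WT 1. CTTN, cortactin, differed from the rest, with 33.2 CPM in WT 2 against 11.3 and 11.1 CPM. Medians of the SD of log2 CPM were taken over list members with a mean of 10 CPM or more. They were 0.0894 for oncogenes and cell cycle drivers (23 of 30), 0.0999 for RAS to ERK genes (27 of 29) and 0.101 for epithelial genes (22 of 26). Cytokines and chemokines gave 0.335 (9 of 29), mesenchymal genes 0.492 (6 of 15) and basal and squamous genes 0.589 (5 of 12). The last 3 thus rest on few members. FOXA1, at 0.00459, was the steadiest of the listed genes at that level.

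The Lipo libraries carry the label of WT, but what their title stands for, and whether those cells met any reagent, is not given, so what separates them from WT cannot be told from the labels. They were compared with WT by edgeR's quasi-likelihood test over 15832 genes, with Benjamini-Hochberg adjustment and a threshold of 0.05. Of these genes 586 differed (3.7%), 209 higher in Lipo (1.32%) and 377 lower (2.38%). Of the 384 listed genes tested, 51 differed, 15 higher and 36 lower. Their share is not read against the background as a result, since the lists were chosen with such differences known. The same holds for the counts of each list below. The median log2 difference was -0.06 for listed genes and -0.02 for all genes tested. Mitochondrial reads, at 8.38% of counts in Lipo, were above the 5.71% in WT, and the part of this in the differences was not tested. The calls rested on both Lipo libraries: without Lipo 2 or Lipo 3 only 82 or 34 genes passed, and without WT 2 or WT 3 there were 318 or 352. Of the 51 listed genes, 7 passed without Lipo 2, 6 without Lipo 3, 33 without WT 2 and 39 without WT 3. The genes that passed in each of these were CEACAM6, GDF15, ROS1, SFTPA2, SFTPB and SOX2, which also passed under every other setting tried. The calls of other genes named below rest on both Lipo libraries, and some were lost under other settings too.

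Of 11 alveolar type 2 genes tested, 4 were lower in Lipo and 1 was higher, with a list median of -0.70 (log2). Over all tested genes 2.38% were lower and 1.32% higher. SFTPA2 stood at 1578 and 1712 CPM in Lipo, below every WT library, 2.56-fold lower (log2 difference -1.35, SE 0.15, edgeR adjusted p = 0.000572). SFTPB stood at 74.7 and 77.1 CPM, 2.56-fold lower (adjusted p = 0.000674). SFTPA1 stood at 2122 and 2346 CPM, 1.81-fold lower (adjusted p = 0.00345), and ABCA3 at 24.0 and 22.3 CPM (adjusted p = 0.0468). The protease CTSH was higher, at 62.0 and 62.8 CPM (adjusted p = 0.0465). NKX2-1, at 212 and 217 CPM, and FOXA1, at 336 and 356 CPM, did not pass (adjusted p = 0.353 and 0.135). In the modified cells SFTPA2 stood at 4822, 3634 and 4937 CPM in KO and 1005 and 1008 CPM in OE, and SFTPB at 39.1, 51.8 and 57.6 CPM in KO and 30.1 and 29.3 CPM in OE. SFTPB was thus lower in each of the other 7 libraries than in any WT library.

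Of 21 lung lineage transcription factors tested, 6 were higher in Lipo and 1 was lower (1.32% and 2.38% over all tested genes), with a list median of 0.32 (log2). SOX2 stood at 69.8 and 75.1 CPM, 2.54-fold higher (edgeR adjusted p = 0.00108), FOXA2 at 5.50 and 5.06 CPM, 3.49-fold higher (adjusted p = 0.00477), and CEBPD, a CCAAT-binding factor induced by glucocorticoid, at 78.2 and 69.0 CPM, 2.65-fold higher (adjusted p = 0.00477). CEBPB, ETV5 and GRHL2 were the others. HOPX, a homeodomain protein of alveolar type 1 cells, was lower, at 52.4 and 53.8 CPM (adjusted p = 0.00497), as were CAV1, CAV2 and CAVIN1 of the same lineage (3 of 8 tested type 1 genes).

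Among surface receptors and antigens, 9 of 88 tested genes were lower and 0 higher, and among secreted products 11 of 84 were lower and 3 higher. The shares over all tested genes were 2.38% lower and 1.32% higher, and these list counts are not read as results. CEACAM6 stood at 196.5 and 226 CPM, 2.35-fold lower (edgeR adjusted p = 0.00121), and CEACAM5 at 105 and 114 CPM, 3.39-fold lower (adjusted p = 0.00477). ROS1 stood at 2.83 and 2.64 CPM, 5.18-fold lower (adjusted p = 0.000631), and AXL at 2.91 and 1.91 CPM (adjusted p = 0.0161). Tumour surface antigens were lower in 7 of 27 tested, and matrix and protease genes in 8 of 31, with COL12A1, PLAT and MMP13 at the smallest p-values. PLAT stood at 295 and 293 CPM against 578 to 1127 CPM in WT. Among ligands, GDF15, a stress-induced member of the TGF-beta family, had the highest log2 difference of the listed genes that passed, at 86.0 and 80.5 CPM against 6.36, 13.6 and 14.4 CPM (7.27-fold, adjusted p = 0.000631). MDK rose as well, to 651 and 650 CPM, and INHBA was lower at 0.0833 and 0.182 CPM (adjusted p = 0.00426).

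Of 5 ciliated genes tested, 2 were lower in Lipo (DNAH5 and CCDC78), as were 2 of 6 basal genes (S100A2 and KRT6A) and 2 of 9 mesenchymal genes (ZEB1 and VIM). CCDC78 and VIM stood at the threshold (edgeR adjusted p = 0.04985 and 0.04831). Neither passed with RLE scaling or with only the WT and Lipo libraries. The RAS to ERK list had 3 higher of 28 tested (DUSP4, DUSP5 and ETV5), the oncogene list CCND3 alone of 28, and the suppressor list 2 of 25, with CDKN1A among them. CDKN1A stood at 99.66 and 122.6 CPM in Lipo, 1.79-fold higher (edgeR adjusted p = 0.0185). LCN2 was higher and the desmosome gene DSP lower. MET, CDH1, KRT19 and MUC1 did not pass (adjusted p = 0.425, 0.368, 0.956 and 0.607). None of 29 cytokine receptors, 18 cytokines or 28 tested genes of foreign lineages differed. Over all tested genes 3.7% differed, so no call in lists of this size is near that share and is not read as stability.

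**Figure D5:**
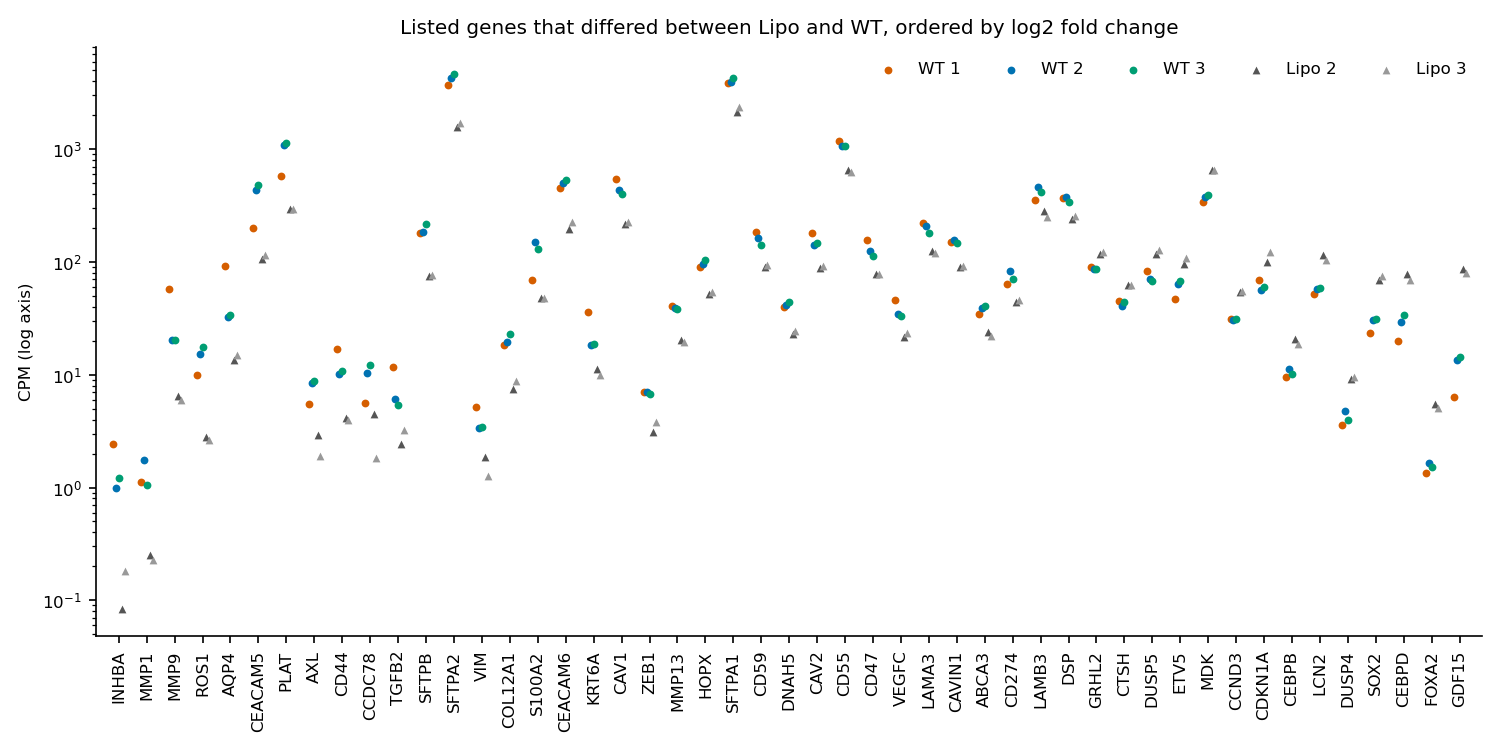
CPM (log axis) of 49 of the 51 listed genes that differed between Lipo (triangles, 2 libraries) and WT (circles, 3 libraries), ordered from the most negative to the most positive log2 difference. SFTPA2, SFTPB and CEACAM6 are lower in both Lipo libraries than in any WT library, and GDF15 is higher in both.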

How the data were processed

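Raw read counts per gene were used as deposited by the authors: whole numbers, not normalized. Tools listed in the submitters' processing notes, without role or order, are featureCounts, HISAT2 2.1.0, edgeR and FastQC, and the build listed is GRCh38. Strand, overlap and multi-mapping rules of the counting, and its annotation, are not given in the sources used here. The table had 62710 rows, of which 1 (ANK2) held no values, and 2 columns matched no sample and were not used. Gene types, positions and exon lengths came from GENCODE 29, which held 58273 of the rows. Other rows had no length and no TPM, and lengths may differ from those of the annotation used for counting.

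Library sizes were scaled by TMM over the 10 libraries with edgeR 4.0.16 in R 4.3.3. TPM used the merged exon length, with CPM alone and the length of the principal transcript as alternatives for ranks. Lipo was compared with WT by edgeR's robust quasi-likelihood test, two-sided, in 1 fit of all 10 libraries and 4 groups with 6 residual degrees of freedom after filterByExpr. DESeq2 1.42.0 was an alternative, as were RLE scaling, library size alone, other filters, only the 2 groups, the replicate block and each library left out. On simulated data of 15133 genes the Lipo with WT test recovered 8.64% of 1.5-fold, 64.9% of 2-fold and 90.3% of 4-fold changes, with 4 false calls of 104. The simulation drew each gene independently, without a shift of a library shared across genes like that of WT 1. Its rates of recovery and of false calls therefore do not carry over to the real calls. Intervals and floors (3 reads) cover counting error only.

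Genes were named by rule: the 4 markers and TET1, the 15 highest per length (leaving out mitochondrial, ribosomal protein and structural RNA genes and pseudogenes), the 6 highest and the unread members of each list, members of foreign lineages at 1 CPM or more, the 12 most variable genes and up to 3 members per list in Lipo with WT. Other genes named, and the 73 subunits, were chosen after values had been seen. The members and lists were chosen with earlier results of these data known. Some listed genes enter the counts and tests but are not reported by name here.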

Additional observations from a re-analysis of the deposited data

How the results depend on the processing

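Under each scaling and left-out library, the number of genes at 1 CPM in all WT libraries and the 14 genes of foreign lineages at 1 CPM stayed within 1.5-fold of the reported values, as did the first at 0.5 CPM (no other threshold was tried for the second). The median SD of log2 CPM between WT libraries was 0.0625 to 0.176 with 1 library left out, lowest without WT 1. The count of 586 genes in Lipo with WT was 1100 with no filter on low counts, which tests more genes, and 991 with DESeq2, for which the cause was not tested. It was 34 to 498 with 1 library left out, lowest without Lipo 3, where Lipo is a lone library assumed to vary like the other groups. With the replicate block it was 850, and 46 of the 51 listed calls held. Deviations of WT and Lipo libraries with the same number correlated at 0.0258 and -0.11. Deviations within a group sum to 0 and are linked, so these values cannot tell whether the numbers pair the samples. Of the 51, 51 held with DESeq2, 47 with RLE scaling, 45 without WT 1, 7 without Lipo 2 and 6 without Lipo 3, and no direction changed. Ranks by CPM without length were 628 for NKX2-1 and 65 for CDH1, and by principal transcript length, an alternative chosen after seeing the data, 589 and 211.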
